A study of Mus musculus with 4 samples.

Results

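Retnla, Fn1, Lyz1, Lyz2 and Ear2 were followed as a set of 5 genes, of 26033 features in the deposited matrices. They were chosen because they lead a cluster of myeloid cells whose size and expression differ between Csf2 genotypes in these same libraries. Their levels in that cluster, and the genotype difference in those cells and in whole libraries, are therefore given as a description without a test. Raw counts of unique molecular identifiers (UMIs, each marking a captured mRNA molecule) were read for each gene in each cell. The libraries hold CD45+ leukocytes of the salivary gland from C56BL/6 (as labelled) mice at 20 days of age, enriched on magnetic beads and then sorted. The mice were Csf2-/-, lacking both alleles of the gene for GM-CSF (called knockout below), or Csf2+/-, keeping 1 functional allele (called heterozygous below). Each genotype has 1 female and 1 male library (n = 2 libraries per genotype), and each library pools 2 mice. Where a pair of values is given for a genotype, the female library comes before the male library. No Csf2+/+ library was used, so every comparison is between absence of GM-CSF and a single functional allele.

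GM-CSF is a cytokine that signals through a receptor made of a specific alpha chain and the shared beta chain Csf2rb, and it activates the kinase JAK2 and the transcription factor STAT5. In mice it maintains certain tissue macrophages, those of the lung alveoli being the best known, and it supports dendritic cells. Retnla encodes RELM-alpha, a secreted resistin-like protein that macrophages make in large amounts after IL-4 or IL-13. Fn1 encodes fibronectin, a matrix glycoprotein made by fibroblasts and by some monocytes and macrophages. Lyz1 and Lyz2 encode lysozymes, secreted enzymes that cleave bacterial cell walls. Lyz2 is the form shared by monocytes, macrophages and neutrophils, and Lyz1 is best known from Paneth cells of the mouse gut. Ear2 encodes a mouse eosinophil-associated ribonuclease of the RNase A family, which is also found in monocytes.

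The promoters of the genes are shown first, because 2 of the 5 genes are near copies of each other and because the genes are described together. The windows run from 250 bases before to 50 bases after the annotated start and come from RefSeq on build GRCm38.p6, not the build GRCm39 used for the counts. They matched 4 of the 5 genes, and Fn1 is named only. Retnla lies at chr16:48842359-48842658 on the plus strand, Lyz1 at chr10:117292819-117293118 and Lyz2 at chr10:117282223-117282522, both on the minus strand, and Ear2 at chr14:44102404-44102703 on the plus strand. Each is written 5' to 3' along the gene, with matches to 4 searched motifs in capitals.
Retnla: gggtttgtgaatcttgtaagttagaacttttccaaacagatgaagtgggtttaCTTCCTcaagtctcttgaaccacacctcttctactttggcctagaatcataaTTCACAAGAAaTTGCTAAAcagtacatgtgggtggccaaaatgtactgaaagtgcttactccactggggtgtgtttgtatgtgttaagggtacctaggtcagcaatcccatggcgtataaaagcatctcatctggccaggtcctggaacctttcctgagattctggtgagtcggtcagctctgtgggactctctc
Lyz1: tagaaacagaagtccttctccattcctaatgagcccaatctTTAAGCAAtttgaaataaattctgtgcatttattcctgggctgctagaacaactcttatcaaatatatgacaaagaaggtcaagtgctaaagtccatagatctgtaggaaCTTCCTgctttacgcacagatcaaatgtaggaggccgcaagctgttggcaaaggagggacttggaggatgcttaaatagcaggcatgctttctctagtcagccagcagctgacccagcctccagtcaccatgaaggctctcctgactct
Lyz2: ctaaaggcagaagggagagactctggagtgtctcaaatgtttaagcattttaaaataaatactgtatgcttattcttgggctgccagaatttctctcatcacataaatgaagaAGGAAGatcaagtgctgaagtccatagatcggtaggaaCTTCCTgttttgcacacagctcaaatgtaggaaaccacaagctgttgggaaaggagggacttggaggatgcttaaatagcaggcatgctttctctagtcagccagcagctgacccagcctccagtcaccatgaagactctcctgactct
Ear2: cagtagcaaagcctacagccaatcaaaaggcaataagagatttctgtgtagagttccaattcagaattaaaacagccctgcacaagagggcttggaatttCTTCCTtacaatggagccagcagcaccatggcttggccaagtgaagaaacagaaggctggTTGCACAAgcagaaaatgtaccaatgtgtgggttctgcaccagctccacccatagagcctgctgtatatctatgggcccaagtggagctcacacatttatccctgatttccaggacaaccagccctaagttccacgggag
The motifs, searched on both strands, were a STAT5-type site (TTCNNNGAA), a STAT6-type site (the same letters with 1 more N), a C/EBP-type site (TTGCNNAA) and a PU.1-type site (AGGAAG). No STAT5-type match was found in these 4 windows, against a match in 8.47% of 27025 mouse promoter windows of the same length. The STAT6-type letters were found in the Retnla window, starting at position -145 from the annotated start, against 6.99% of all windows. The C/EBP-type letters were found in Retnla (position -134), Lyz1 (position -209) and Ear2 (position -90), against 10.8% of all windows. The PU.1-type letters were found in all 4 windows, against 35.1% of all windows, and they lie at position -99 in both lysozyme promoters. The Lyz1 and Lyz2 windows were 82.5% identical, with an identical run of 86 bases, and their genes are neighbours. A match is a description of letters and not of binding, and no match says only that these letters are not in this window.

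The likeness of the genes also bears on counting. The libraries read the 3' end of transcripts, and a UMI counts a molecule whatever its length. The last 500 bases of the longest coding transcripts of Lyz1 and Lyz2 were 95.4% identical, but only 15 of the 411 windows of 90 bases (3.65%) occurred in both. Of the Ear2 windows, 40 of 411 (9.73%) occurred also in Ear1, Ear10 or the pseudogene Ear-ps2. No window of Retnla or Fn1 occurred in another gene. Reads from the shared windows cannot be assigned, so the split between Lyz1 and Lyz2 and the Ear2 level carry that uncertainty.

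The knockout libraries held 10090 and 9918 barcodes and the heterozygous libraries 10065 and 9322, at 111981802 to 122366588 UMIs in total, with median UMIs per barcode of 8953 and 9003 in knockout and 10586 and 10086 in heterozygous libraries. After filters and doublet removal 34805 cells fell into 41 clusters, which were grouped into classes by marker genes and called X-like, and pairs of libraries shared 20 to 38 barcodes. Not every cell was a leukocyte: the knockout female library held 186 epithelial-like cells, against 23 to 58 in the other libraries, and its lymphocytes carried salivary epithelium genes at 2409 CPM (UMIs per 1000000 UMIs), against 1020 to 1572 CPM in the others. Csf2 itself was at 6.58 CPM (female) and 5.76 CPM (male) in ILC2-like cells of knockout libraries, against 124 CPM (female) and 137 CPM (male) in heterozygous libraries.

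Whole-library levels mix the number of cells with the level per cell. Retnla was at 100.2 CPM (female) and 66.8 CPM (male) in knockout, against 634 CPM (female) and 594 CPM (male) in heterozygous. Both knockout libraries lie far under both heterozygous libraries, at 83.5 ± 23.6 CPM against 614 ± 28.4 CPM (SD, n = 2 each), a log2 difference of -2.88. Fn1 was at 46.4 ± 2.38 CPM in knockout and 194 ± 47.2 CPM in heterozygous libraries, with no overlap. Lyz1 averaged 16.0 ± 1.5 CPM in knockout, against 60.3 ± 20.4 CPM in heterozygous libraries, and Ear2 20.9 ± 5.61 CPM in knockout, against 70.5 ± 12.5 CPM in heterozygous libraries. Lyz2 was the exception, at 1602 CPM (female) and 2078 CPM (male) in knockout and at 1725 CPM (female) and 2041 CPM (male) in heterozygous libraries, so the genotypes overlap and the means differ by -0.03 on the log2 scale. Retnla, Fn1, Lyz1 and Ear2, 4 of the 5 genes, were lower in both knockout libraries than in both heterozygous libraries. The same held for 23.8% of 12529 genes at a mean of at least 1 CPM, with 19.3% higher in both, and nothing is read from the count, since the genes were chosen on this contrast.

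Among the cell classes, Retnla, Fn1, Lyz1 and Ear2 were highest in a cluster called here by its leading genes, the Retnla Fn1 cluster. It holds 80 and 82 cells in the knockout female and male libraries and 300 and 345 cells in the heterozygous female and male libraries. Its leading genes by fold over other cells are Retnla, Lyz1, Fn1, Ear2, Lpl, Ccl6, Il1rn, Ccl9, Mmp12 and Pltp. Since most of the 5 genes helped to form the cluster and differ between genotypes, its cell numbers are given as sample sizes and not compared. In every library 9 of 12 macrophage markers were at 50 CPM or more in it. The same held for 5 of 11 markers of cDC2 (type 2 conventional dendritic cells), and the cluster was given no cell type name. Of the eosinophil markers, the granule protein genes Epx and Prg2 and the ribonuclease gene Ear6 were at 0 UMIs in it in every library. Its summed macrophage markers were at 5426 and 5102 CPM in knockout, against 3966 and 3723 CPM in heterozygous libraries, its summed eosinophil markers at 65.4 and 89.9 CPM in knockout, against 212 and 245 CPM in heterozygous libraries, and its summed cDC2 markers at 1296 and 1441 CPM in knockout and 1456 and 1556 CPM in heterozygous libraries. The part of these marker differences in the values below was not tested.

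**Figure D1:**
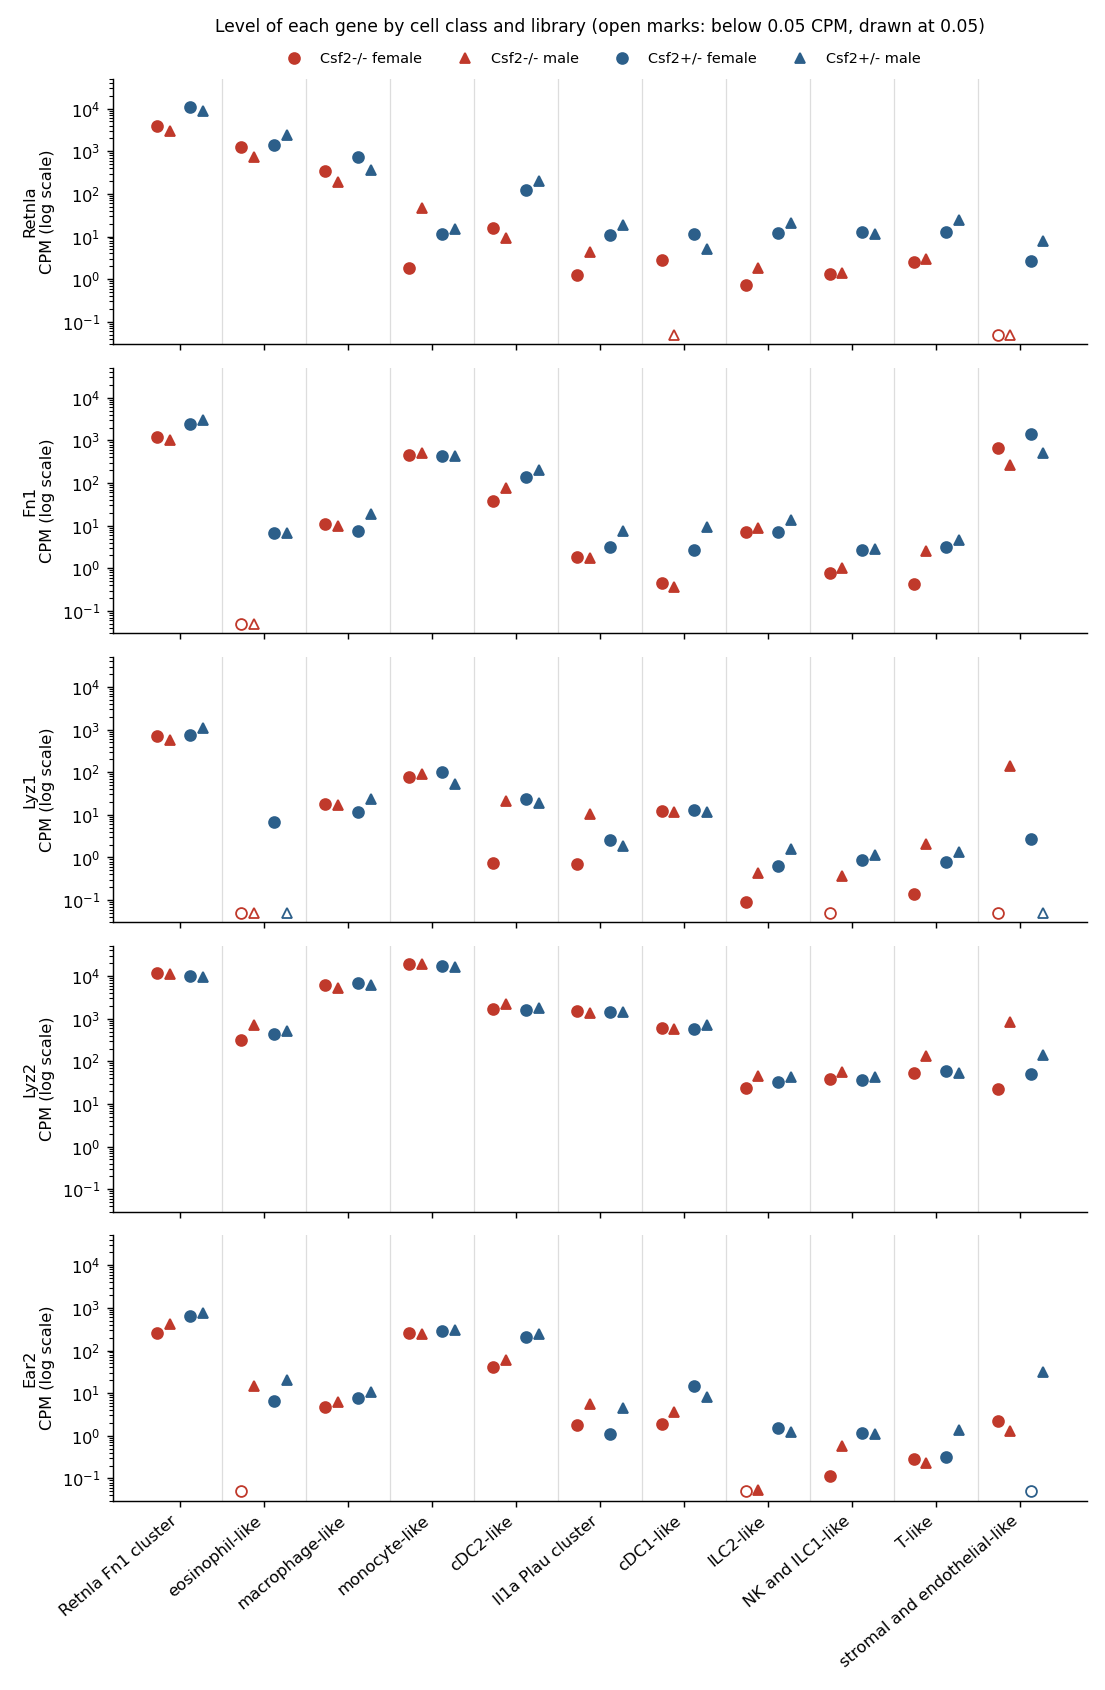
Level of each gene in CPM (log scale) in 11 cell classes, 1 mark per library: red for Csf2-/- and blue for Csf2+/-, circles for female and triangles for male. Retnla, Fn1, Lyz1 and Ear2 are highest in the Retnla Fn1 cluster among these classes, and Lyz2 is highest in monocyte-like cells at 16733 to 19406 CPM.

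Retnla was concentrated in 3 classes. In the Retnla Fn1 cluster it was at 4013 CPM (female) and 3056 CPM (male) in knockout, against 11173 CPM (female) and 8880 CPM (male) in heterozygous libraries, with no overlap and a log2 difference of -1.48 in the edgeR fit. Eosinophil-like cells came next, at 738 to 1262 CPM in knockout and 1387 to 2466 CPM in heterozygous libraries, then macrophage-like cells, at 190 to 353 CPM in knockout, against 363 to 751 CPM in heterozygous libraries. Within a genotype these 3 classes do not overlap in level. Monocyte-like and cDC2-like cells followed in knockout libraries, overlapping each other, and neutrophil-like and cDC2-like cells in heterozygous libraries, likewise overlapping. The cluster held 54.6% and 56.7% of the library's Retnla UMIs in knockout, against 90.1% and 89.8% in heterozygous libraries. Outside the cluster Retnla was at 46.2 and 29.3 CPM in knockout and 66.0 and 64.7 CPM in heterozygous libraries.

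Among the merged classes Fn1 was also highest in the Retnla Fn1 cluster, at 1184 CPM (female) and 1044 CPM (male) in knockout, against 2410 CPM (female) and 2982 CPM (male) in heterozygous libraries, with no overlap and a log2 difference of -1.25. Cells outside it also carried the fibronectin transcript. Monocyte-like cells held it at 458 and 501 CPM in knockout and 424 and 432 CPM in heterozygous libraries. A small cluster led by fibroblast collagens (Col3a1, Col1a2 and Dcn) held it at 1397 and 609 CPM in knockout, from 14 and 17 cells, and at 1787 and 1273 CPM in heterozygous libraries, from 16 and 11 cells. In the knockout female library that is above the Retnla Fn1 cluster. The cluster held 36.1% and 26.9% of the Fn1 UMIs of the knockout libraries, against 77.0% and 78.9% of those of the heterozygous libraries. The share in monocyte-like cells was 34.4% and 46.9% in knockout, against 8.93% and 8.23% in heterozygous libraries.

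The lysozyme genes parted from each other. Lyz2 was highest in monocyte-like cells, then in the Retnla Fn1 cluster and then in macrophage-like cells, and these ranges do not overlap within a genotype. In the cluster Lyz2 was at 11526 CPM (female) and 10937 CPM (male) in knockout, against 9954 CPM (female) and 9580 CPM (male) in heterozygous libraries. It was thus the only one of the 5 genes that was higher there in both knockout libraries, by 0.22 on the log2 scale. The cluster held 14987 of the 152853 and 13376 of the 204987 Lyz2 UMIs of the knockout libraries. In heterozygous libraries the cluster held 53631 of 181728 and 56363 of 200072 Lyz2 UMIs. Lyz1 was at 689 CPM (female) and 583 CPM (male) in knockout, against 765 CPM (female) and 1110 CPM (male) in heterozygous libraries, a log2 difference of -0.53. The groups did not overlap, but the heterozygous libraries differ from each other by more than the lower of them differs from the knockout female library. Monocyte-like cells followed for Lyz1 at 78.0 and 90.3 CPM in knockout and 98.7 and 52.1 CPM in heterozygous libraries.

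Lyz1 made up 5.64% and 5.06% of the lysozyme UMIs (Lyz1 plus Lyz2) of the cluster in knockout, against 7.14% and 10.4% in heterozygous libraries. The share was 0.173% to 0.367% in macrophage-like cells, 0.310% to 0.579% in monocyte-like cells and 1.57% to 2.25% in cDC1-like cells. The cluster mean hides a few cells that carry most of it. No Lyz1 UMI was found in 77.5% and 82.9% of the cluster's cells in knockout, against 59.7% and 62.6% in heterozygous libraries. At the other end, cells with at least 20% Lyz1 numbered 6 and 6 in knockout and 35 and 61 in heterozygous libraries. They made up 7.5% and 7.32% of the cluster's cells in knockout, against 11.7% and 17.7% in heterozygous libraries. They held 78.0% and 80.9% of the cluster's Lyz1 UMIs in knockout and 67.6% and 84.7% in heterozygous libraries. The highest share in a cell was 52.0% and 34.7% in knockout, against 69.0% and 57.4% in heterozygous libraries. Such cells were thus seen in all 4 libraries.

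**Figure D2:**
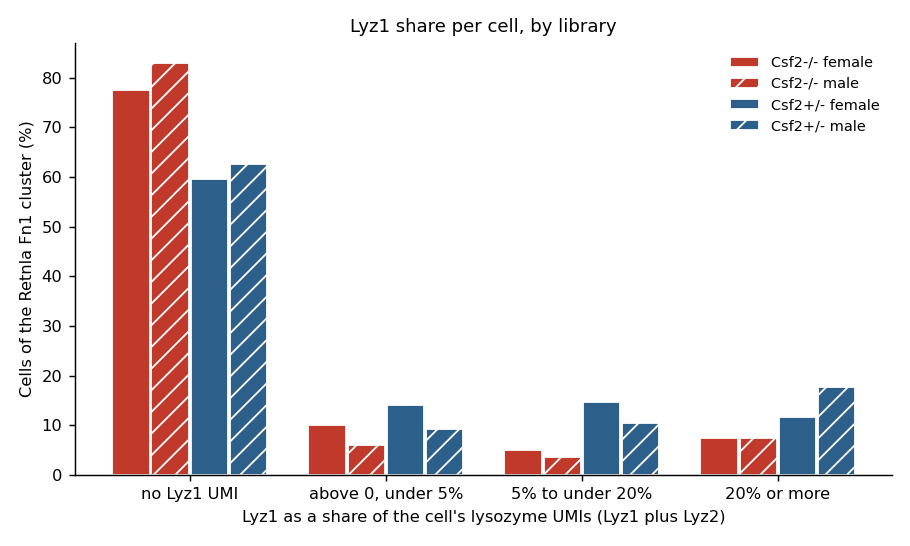
Share of cells of the Retnla Fn1 cluster (%) by the part of the cell's lysozyme UMIs that are Lyz1, 1 bar per library (red Csf2-/-, blue Csf2+/-, hatched male). Cells with no Lyz1 UMI are 77.5% and 82.9% in Csf2-/-, against 59.7% and 62.6% in Csf2+/-, and cells at 20% or more are found in every library.

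Ear2 was at 265 CPM (female) and 413 CPM (male) in the cluster in knockout, against 632 CPM (female) and 743 CPM (male) in heterozygous libraries, with no overlap and a log2 difference of -1.0. Monocyte-like cells held it at 254 and 247 CPM in knockout and 281 and 299 CPM in heterozygous libraries, and cDC2-like cells followed. Eosinophil-like cells, for which the gene is named, held it at 0 and 14.8 CPM in knockout and 6.67 and 20.2 CPM in heterozygous libraries. These values rest on 0 and 1 UMIs in knockout and 1 and 3 UMIs in heterozygous libraries. These cells had a median of 660 to 818 UMIs, and the granule genes Epx and Prg2 and the ribonuclease genes Ear1 and Ear6 were at 0 UMIs in them in every library, while their eosinophil markers summed to 5290 and 7073 CPM in knockout and 7114 and 7107 CPM in heterozygous libraries. The cluster held 21.3% and 20.6% of the library's Ear2 UMIs in knockout, against 52.5% and 56.2% in heterozygous libraries.

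The lower means went with fewer cells that expressed each gene. A cell was called an expresser of a gene when it held at least 2 UMIs and more than its depth and the lymphocyte rate of its library would give (Poisson tail under 0.001). In the cluster, 41.2% (exact binomial 95% interval 30.4 to 52.8) and 24.4% (15.6 to 35.1) of the knockout cells were Retnla expressers, against 74.0% (68.6 to 78.9) and 72.8% (67.7 to 77.4) of the heterozygous cells. Fn1 expressers averaged 60% ± 14.1 in knockout and 88.0% ± 0.963 in heterozygous libraries, and Ear2 expressers 53.0% ± 6.06 in knockout, against 86.0% ± 4.23 in heterozygous libraries (SD, n = 2 each). Lyz1 expressers averaged 15.4% ± 1.14 in knockout, against 31.8% ± 0.728 in heterozygous libraries, while Lyz2 expressers were 98.8% to 100% in every library. The intervals cover counting error only. The cluster's median depth was 15067 and 15103 UMIs in knockout and 17262 and 16237 UMIs in heterozygous libraries. Thinned to 3000 UMIs per cell, with 1 to 8 shallower cells left out per library, 35.9% and 22.2% of knockout cluster cells held a Retnla UMI, against 74.6% and 75.1% of heterozygous cells.

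Among expressers in the cluster, the median Retnla level was 57.1 and 56.6 UMIs per 10000 UMIs of the cell in knockout, against 87.5 and 75.6 in heterozygous libraries. Over all its cells the median was 0 in both knockout libraries, against 43.9 and 40.9 in heterozygous libraries, and the 90th percentile was 89.4 and 90.6 in knockout and 360 and 260 in heterozygous libraries. A knockout cell of the cluster was thus more often without Retnla, and the upper end was lower too. The most loaded cell still reached 396 and 870 UMIs per 10000 in knockout, against 1062 and 1043 in heterozygous libraries. Median Fn1 was 3.40 and 1.20 in knockout against 18.6 and 25.1 in heterozygous libraries, and median Ear2 0.688 and 1.60 in knockout and 5.54 and 7.03 in heterozygous libraries. Median Lyz2 ran the other way, at 98.8 and 91.5 in knockout and 83.9 and 83.5 in heterozygous libraries.

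**Figure D3:**
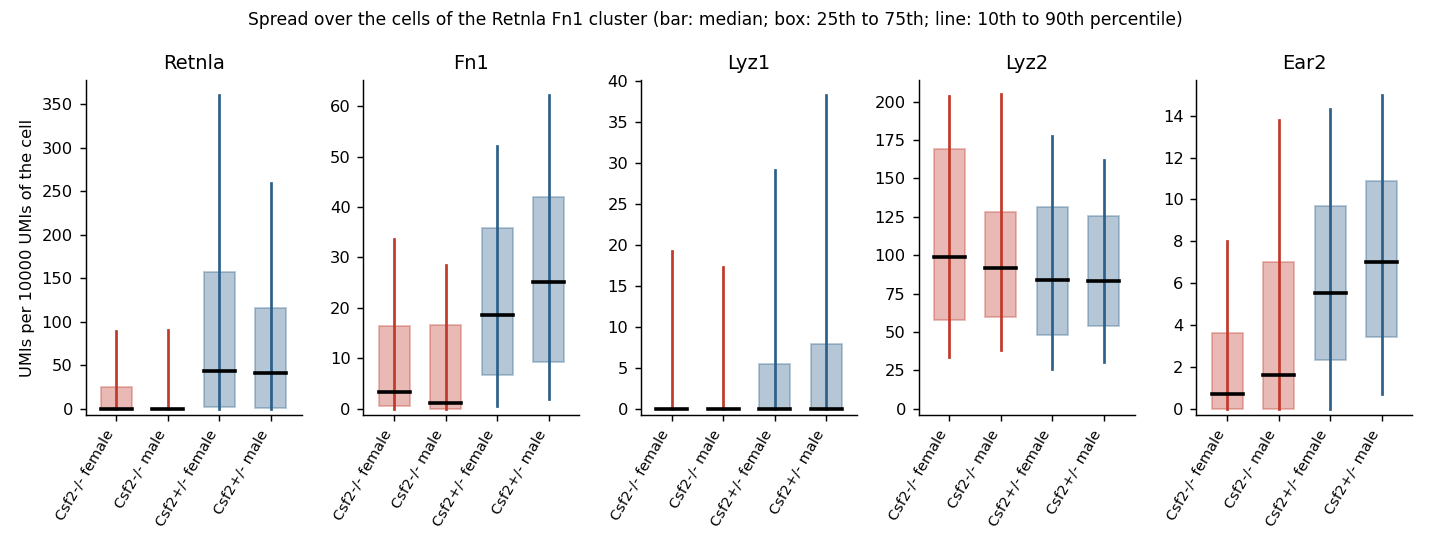
UMIs of each gene per 10000 UMIs of the cell, over the cells of the Retnla Fn1 cluster, by library (80, 82, 300 and 345 cells). The bar is the median, the box the 25th to 75th and the line the 10th to 90th percentile; the Retnla median is 0 in both Csf2-/- libraries, and the Lyz2 boxes overlap across all 4 libraries.

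The genes differed in how few cells held their RNA. In all cells of a library, the fewest cells that together held 50% of the Retnla UMIs numbered 10 and 9 in knockout and 38 and 46 in heterozygous libraries. For Fn1 they numbered 34 and 60 in knockout and 83 and 94 in heterozygous libraries, for Lyz1 6 and 7 in knockout and 19 and 23 in heterozygous libraries, and for Ear2 90 and 109 in knockout and 156 and 178 in heterozygous libraries. For Lyz2 they were 292 and 359 cells in knockout and 281 and 345 in heterozygous libraries, an order that overlaps. A single cell held up to 855 and 1435 Retnla UMIs in knockout, against 2359 and 2166 in heterozygous libraries, so a few cells can move a class mean.

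The genotypes also differed in how often the genes were found in the same cell, which was not tested. They differed as well in where the Retnla expressers lay. The Retnla Fn1 cluster held 28.4% and 15.5% of them in knockout, against 63.6% and 63.5% in heterozygous libraries. The part of this placement in the shares below was not tested. Of the Retnla expressers of a library (116 and 129 cells in knockout, 349 and 395 cells in heterozygous), 38.8% and 21.7% also expressed Fn1 in knockout, against 64.8% and 67.8% in heterozygous libraries. The same expressers also expressed Ear2 in 29.3% and 26.4% of cases in knockout, against 62.2% and 67.3% in heterozygous libraries. For Lyz2 the shares were 85.3% and 86.0% in knockout and 83.7% and 81.3% in heterozygous libraries. Cells that expressed all 5 genes numbered 8 and 8 in knockout and 75 and 102 in heterozygous libraries. Of these, 8 and 8 in knockout, against 72 and 95 in heterozygous libraries, lay in the cluster. That was 10% and 9.76% of the cluster's cells in knockout, against 24% and 27.5% in heterozygous libraries. Cluster cells with only 1 of the 5 genes made up 21.2% and 36.6% in knockout, against 5.67% and 3.77% in heterozygous libraries.

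Free RNA in the droplets was read from lymphocytes (NK and ILC1-like, T-like, B-like and ILC2-like cells), in which Retnla, lysozyme and Ear2 transcripts were taken as background. A Retnla UMI was found in 1.03% (exact binomial 95% interval 0.762 to 1.37) and 1.44% (1.12 to 1.83) of lymphocytes in knockout, against 10.6% (9.82 to 11.5) and 12.6% (11.6 to 13.6) in heterozygous libraries. The median lymphocyte depths were 8670 and 8258 UMIs in knockout and 10468 and 9907 UMIs in heterozygous libraries. In CPM the lymphocyte level was 1.40 and 1.78 in knockout, against 12.9 and 17.2 in heterozygous libraries. Retnla, Lyz1 and Ear2, 3 of the 5 genes, were lower in lymphocytes of both knockout than of both heterozygous libraries. Of 11551 genes at a mean of at least 1 CPM there, 19.8% were lower in this way and 20.7% were higher. Lyz1 and Ear2 lie under that mean, at 2 to 84 UMIs per library, so these shares are not a background for them. The Retnla level in lymphocytes was 1.40% and 2.67% of the library's level in knockout and 2.03% and 2.90% in heterozygous libraries. The lymphocyte level thus followed the level of the library. The value of 124 CPM in B-like cells of the heterozygous male library came from 106 UMIs, of which a single cell held 89. Thus most cells with a Retnla UMI were not expressers: 14.9% and 18.1% of all heterozygous cells held a Retnla UMI, but only 3.95% and 4.85% were called expressers.

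Lyz2 behaved likewise at a higher level, at 36.8 and 58.9 CPM in lymphocytes in knockout and 38.6 and 45.3 CPM in heterozygous libraries. This was 2.22% to 2.83% of the library's level in all 4. Lymphocytes with at least 2 Lyz2 UMIs held 51.9% to 64.4% of these UMIs. In an NK and ILC1-like cluster led by Styk1, Klrb1c and Klra4, Lyz2 was at 463 CPM. Its Lyz2 expressers averaged 29.2% of cells in knockout and 24.6% in heterozygous libraries. Whether all of this Lyz2 RNA was free RNA was not tested. Ear2 was at 0.111 and 0.305 CPM in lymphocytes in knockout, against 1.17 and 1.20 CPM in heterozygous libraries, and Lyz1 at 0.0445 and 0.611 CPM in knockout and 0.836 and 1.66 CPM in heterozygous libraries. Retnla made up 3.44% and 2.70% of the UMIs of the 5 genes in lymphocytes of knockout and 22.4% and 24.0% in heterozygous libraries. In whole libraries it made up 5.63% and 2.99% in knockout and 24.1% and 19.7% in heterozygous. Fn1 made up more of the 5 genes' UMIs in lymphocytes than in the library in knockout, 5.73% and 6.79% against 2.51% and 2.15%, and Ear2 made up less in all 4 libraries. Lyz1 made up 0.109% in lymphocytes of the knockout female library, from 2 UMIs, against 0.842% in that library.

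Fn1 thus did not keep to the library's level as Retnla and Lyz2 did. Its lymphocyte level was 2.33 and 4.49 CPM in knockout and 3.83 and 6.38 CPM in heterozygous libraries, with overlap, and this was 5.22% and 9.33% of the library's level in knockout against 2.39% and 2.81% in heterozygous libraries. ILC2-like cells held Fn1 at 7.30 and 8.61 CPM in knockout, against 7.16 and 13.9 CPM in heterozygous libraries, and NK and ILC1-like cells at 0.769 and 1.03 CPM in knockout, against 2.65 and 2.84 CPM in heterozygous libraries. Retnla, by contrast, was at 0.721 and 1.81 CPM in ILC2-like cells in knockout, against 12.2 and 20.4 CPM in heterozygous libraries, and at 1.31 and 1.38 CPM in NK and ILC1-like cells in knockout, against 12.6 and 11.7 CPM in heterozygous libraries. The ratio of Fn1 to Retnla thus differed between these lymphocyte classes. Among ILC2-like cells a cluster led by Thsd4, Stab2, Calca and the cytokine gene Il13 held Fn1 at 15.9 and 20.0 CPM in knockout and 18.9 and 31.7 CPM in heterozygous libraries. A small dividing Il13 cluster of 14 to 27 cells per library held it at 44.3 and 22.3 CPM in knockout and 42.0 and 64.1 CPM in heterozygous libraries. In both of these clusters the knockout and heterozygous values overlap. Whether lymphocytes made this Fn1 RNA was not tested.

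**Figure D4:**
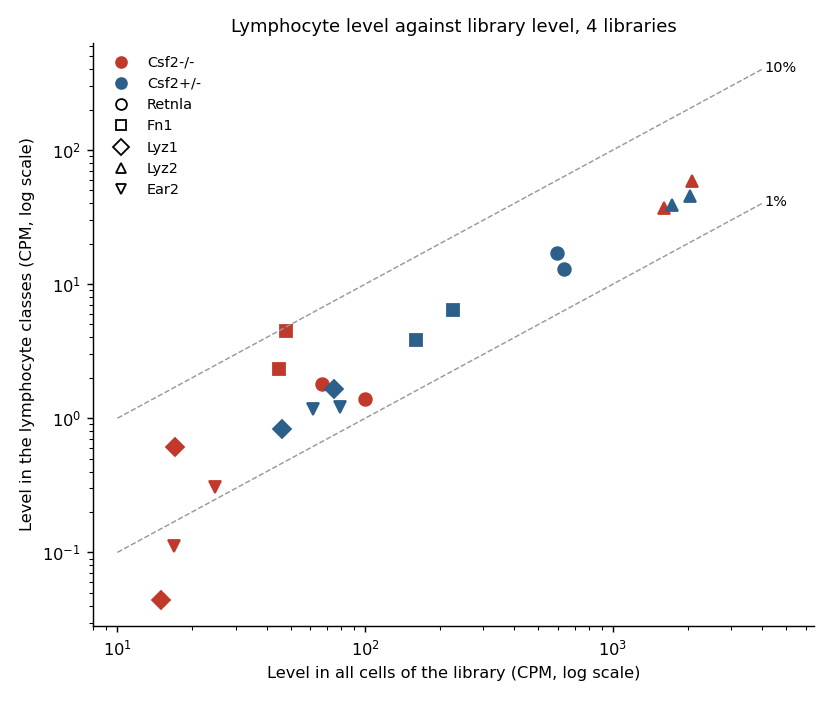
Level of each gene in lymphocytes against its level in all cells of the library (CPM, both axes log scale), 1 mark per gene and library; dashed lines mark 10% and 1% of the library level. Retnla and Lyz2 lie between 1.40% and 2.90%, and Fn1 in Csf2-/- libraries lies at 5.22% and 9.33%.

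Cells outside the cluster were tested with edgeR's quasi-likelihood test on UMIs summed per library, with Benjamini-Hochberg adjustment over all genes of the class. Most of the 5 genes helped to form the clusters, so the borders of these classes were drawn with them. The genes were also chosen with earlier results of these data known, so the tests are not independent of that choice. No alternative setting drew the clusters anew. With 2 libraries per genotype an exact permutation test of a single value cannot go below 0.33. In cDC2-like cells 1 of the 5 genes passed, Ear2, against 4.41% of 10839 genes. It was at 42.1 CPM (female) and 60.2 CPM (male) in knockout, against 210 CPM (female) and 244 CPM (male) in heterozygous libraries. All knockout values lie far under all heterozygous values, and Ear2 fell by 2.13 on the log2 scale (SE 0.138, edgeR adjusted p = 4.52e-05).

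The Ear2 difference in cDC2-like cells was seen in the number of cells and in the level. Ear2 expressers made up 12.8% (exact binomial 95% interval 9.51 to 16.8) and 13.8% (10.7 to 17.3) of them in knockout, against 44.0% (39.2 to 48.9) and 45.9% (40.8 to 51.0) in heterozygous libraries. Thinned to 3000 UMIs per cell, which left out 1 to 6 shallower cells per library, 10.3% and 9.93% of knockout cells held an Ear2 UMI, against 31.6% and 35.5% of heterozygous cells. The level in lymphocytes of the same libraries was 0.111 to 1.20 CPM. The cDC2 markers of these cells summed to 3211 and 3482 CPM in knockout and 3439 and 3633 CPM in heterozygous libraries, and the macrophage markers to 732 and 968 CPM in knockout and 765 and 861 CPM in heterozygous libraries. Salivary epithelium genes summed to 3426 and 732 CPM in knockout and 687 and 1088 CPM in heterozygous libraries, with the knockout female library apart.

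Other marker lists did separate the genotypes in cDC2-like cells. The summed eosinophil markers, like Ear2, were lower in knockout libraries, at 41.8 and 51.9 CPM, against 106 and 138 CPM in heterozygous libraries, and their defining genes Epx, Prg2, Ear6 and Ear1 were at 0 in all 4. The summed monocyte markers were higher in knockout libraries, at 1783 and 2051 CPM, against 1569 and 1676 CPM in heterozygous libraries, with 4 of the 12 at 50 CPM or more in every library. NK and ILC1 markers were likewise higher, at 643 and 641 CPM in knockout, against 462 and 443 CPM in heterozygous libraries. Markers of T cells (78.1 and 160 CPM in knockout, against 51.2 and 56.2 CPM in heterozygous libraries) and of B cells (185 and 195 CPM in knockout, against 123 and 158 CPM in heterozygous libraries) were higher too, as were those of neutrophils and of stromal cells, which summed to under 70 CPM in every library. The part of these cell types in the Ear2 difference was not tested.

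Since the Retnla Fn1 cluster shares markers with cDC2-like cells, the cDC2-like class was also tested in parts, chosen after its values were seen. Without its Retnla expressers, Ear2 was at 41.3 and 58.0 CPM in knockout and 201 and 227 CPM in heterozygous libraries (log2 -2.10, edgeR adjusted p = 2.87e-05). In the larger cDC2-like cluster alone, led by the lectin genes Cd209a and Cd209d, it was at 49.2 and 65.1 CPM in knockout and 225 and 244 CPM in heterozygous libraries (log2 -2.01, edgeR adjusted p = 2.82e-09). In the smaller cluster, led by Cd209a and genes of dividing cells, it was at 27.8 and 48.2 CPM in knockout and 179 and 245 CPM in heterozygous libraries (log2 -2.45, edgeR adjusted p = 0.000492). Over all 14 settings the Ear2 log2 difference ran from -2.45 to -1.93 and the adjusted p from 2.74e-90 to 0.00132.

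**Figure D5:**
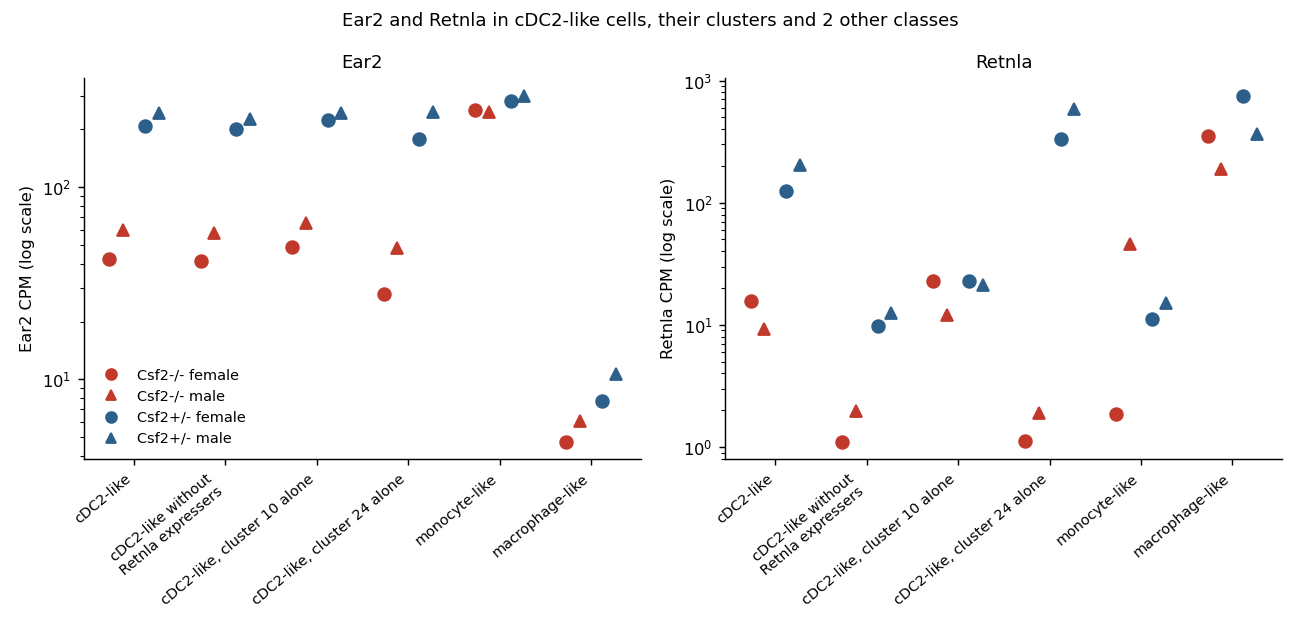
Ear2 (left) and Retnla (right) in CPM (log scale) in cDC2-like cells, their parts, monocyte-like and macrophage-like cells, 1 mark per library (red Csf2-/-, blue Csf2+/-). Ear2 lies at 27.8 to 65.1 CPM in every Csf2-/- and at 179 to 245 CPM in every Csf2+/- value of the cDC2-like cells and their parts, while Retnla lies at 12.1 to 22.9 CPM in all 4 libraries in cluster 10, the larger one.

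Retnla in cDC2-like cells was at 15.6 and 9.19 CPM in knockout, against 125 and 202 CPM in heterozygous libraries. A single cell held 626 of the 1000 Retnla UMIs of the heterozygous female library and another 323 of the 1332 UMIs of the heterozygous male library, and expressers numbered 4 and 8 cells in knockout, against 9 and 15 cells in heterozygous libraries. The groups do not overlap, but the log2 difference of -3.74 (SE 0.502) did not pass with edgeR (adjusted p = 0.126), and passed with DESeq2 (adjusted p = 3.68e-10). Most of the difference lay in the smaller, dividing cluster, at 1.11 and 1.91 CPM (2 and 4 UMIs) in knockout and 330 and 585 CPM in heterozygous libraries, where the same cells hold 626 of 877 and 323 of 1237 UMIs. In the larger cluster Retnla was at 22.7 and 12.1 CPM in knockout and 22.9 and 21.2 CPM in heterozygous libraries, a log2 difference of -0.37 that did not pass (edgeR adjusted p = 0.602). The level in lymphocytes, at 1.40 and 1.78 CPM in knockout and 12.9 and 17.2 CPM in heterozygous libraries, is a far larger part of the heterozygous than of the knockout values here, so these near values do not show equal expression. Fn1 did not pass in the class, at 37.7 and 76.8 CPM in knockout and 136 and 203 CPM in heterozygous libraries (log2 -1.54, edgeR adjusted p = 0.365, and 6.87e-05 with sex as a block). In the dividing cluster Fn1 was at 59.0 and 108 CPM in knockout and 258 and 483 CPM in heterozygous libraries. Lyz1 in cDC2-like cells was at 0.733 and 20.9 CPM in knockout and 23.2 and 19.1 CPM in heterozygous libraries (edgeR adjusted p = 0.836), where the knockout libraries differ from each other the most. A single cell held 177 of the 186 Lyz1 UMIs of the heterozygous female library. Single cells also held 89 of 152 UMIs in the knockout male and 63 of 126 UMIs in the heterozygous male library. In the dividing cluster Lyz1 was at 0.557 and 1.43 CPM in knockout and 68.1 and 56.7 CPM in heterozygous libraries. In the larger cluster it was at 0.819 and 28.7 CPM in knockout and 0.932 and 1.34 CPM in heterozygous libraries. Lyz2 in the class was at 1722 and 2257 CPM in knockout and 1593 and 1770 CPM in heterozygous libraries (log2 0.25, edgeR adjusted p = 0.232, and 0.0385 with sex as a block).

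In macrophage-like cells, edgeR called 0 of the 5 genes, against 0.0451% of 11084 genes, with 1 gene under 0.05 before adjustment and 0 of 2 given an adjusted p by DESeq2. Retnla was at 353 CPM (female) and 190 CPM (male) in knockout and 751 CPM (female) and 363 CPM (male) in heterozygous libraries, a log2 difference of -1.05 with an SE of 0.704 (edgeR adjusted p = 0.662). The groups do not overlap, and the female library was the higher in both genotypes. With sex as a block in the edgeR fit, Retnla (log2 -1.03, adjusted p = 2.49e-14) and Lyz2 (log2 -0.26, adjusted p = 0.00113) passed in these cells. That fit leaves 1 residual degree of freedom, against 2 in the main fit, and no call is read from it. Retnla in these cells sat mostly in the cluster led by Folr2, Pf4, Mrc1 and Lyve1, known markers of perivascular macrophages, at 504 and 250 CPM in knockout and 836 and 395 CPM in heterozygous libraries. In the cluster led by Trem2 and Apoe it was at 25.7 and 46.1 CPM in knockout and 689 and 198 CPM in heterozygous libraries. Ear2 was at 4.75 and 6.10 CPM in knockout and 7.72 and 10.7 CPM in heterozygous libraries (log2 -0.77, edgeR adjusted p = 0.283), and Lyz2 at 6067 and 5134 CPM in knockout and 6866 and 6325 CPM in heterozygous libraries (log2 -0.25, edgeR adjusted p = 0.455). Fn1 and Lyz1 differed by -0.40 and -0.02 on the log2 scale (edgeR adjusted p = 0.732 and 0.983).

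Monocyte-like cells, led by Plac8, Hp, Ace, Adgre4, Ifitm6, Ldlrad3 and Treml4, also had 0 of the 5 genes called, against 1.15% of 9711 genes (0.484% higher and 0.669% lower), with 2 under 0.05 before adjustment and 0 of 4 given an adjusted p by DESeq2. Lyz2 was at 18733 and 19406 CPM in knockout and 16948 and 16733 CPM in heterozygous libraries. The groups do not overlap, but the log2 difference of 0.19 (SE 0.0516) did not pass (edgeR adjusted p = 0.0576, and 0.000941 with sex as a block). Ear2 was at 254 and 247 CPM in knockout and 281 and 299 CPM in heterozygous libraries (log2 -0.20, SE 0.0936, edgeR adjusted p = 0.400), and Fn1 differed by 0.18 (edgeR adjusted p = 0.417). Whether the Ear2 difference in cDC2-like cells is larger than that in monocyte-like cells was not tested. Retnla was at 1.87 and 45.5 CPM in knockout and 11.2 and 15.1 CPM in heterozygous libraries (log2 0.94, edgeR adjusted p = 0.892). A single cell held 187 of the 202 Retnla UMIs of the knockout male library. The other 3 values are near or under the lymphocyte level of their library (1.40 CPM in the knockout female library, and 12.9 and 17.2 CPM in heterozygous libraries), so they are read as background and no direction is given. The log2 difference was 1.78 (adjusted p = 0.00151) without the knockout female and -2.76 (adjusted p = 0.0166) without the knockout male library, where the lone knockout library is assumed to vary like the heterozygous ones. Lyz1 differed by 0.19 (edgeR adjusted p = 0.926), and by 0.72 (adjusted p = 6.5e-05) without the heterozygous female library, with the lone heterozygous library assumed to vary like the knockout ones.

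Eosinophil-like cells (68 and 78 cells in knockout, 180 and 193 in heterozygous libraries) carried Retnla at 1262 CPM (female) and 738 CPM (male) in knockout and 1387 CPM (female) and 2466 CPM (male) in heterozygous libraries. These levels rest on 78 and 50 UMIs in knockout and 208 and 366 UMIs in heterozygous libraries, and the log2 difference of -0.96 (SE 0.371) did not pass (edgeR adjusted p = 0.50). Of the 5 genes only Retnla and Lyz2 had enough counts to be tested here, and 0 of these 2 were called by edgeR or DESeq2, with 1 under 0.05 before adjustment, against 0.149% of 2014 genes (0.0497% higher and 0.0993% lower). The 2 genes called lower were the salivary genes Prol1 and Pip. Salivary epithelium genes summed to 15966 and 7708 CPM in these cells in knockout and 10021 and 15785 CPM in heterozygous libraries. In lymphocytes they summed to 1020 to 2409 CPM. The part of such RNA from other cells in the values of this class was not tested. Retnla passed without the knockout female library (adjusted p = 1.82e-05) and without the heterozygous female library (adjusted p = 0.0119). In each of these fits 1 genotype has a single library, which is assumed to vary like the libraries of the other genotype. With sex as a block Retnla also passed (edgeR adjusted p = 0.0397). A single cell held 30 of the 78 Retnla UMIs of the knockout female library. Lyz2 differed by 0.12 (edgeR adjusted p = 0.962).

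Pathway genes other than the 5 were counted on lists. Of 30 genes of the GM-CSF receptor and STAT5 response, 8 fell and 0 rose in cDC2-like cells, against 2.56% of all 10839 genes lower and 1.85% higher, and the list's median log2 difference was -0.33 against 0.0045 for all genes. Cish, a STAT5-induced inhibitor of cytokine signals, fell to 10.8 and 18.1 CPM in knockout, against 56.8 and 55.1 CPM in heterozygous libraries (log2 -1.91, edgeR adjusted p = 7.84e-05). Csf2rb, the shared receptor chain, fell by 0.71 on the log2 scale (edgeR adjusted p = 0.000249), the fatty acid binding protein gene Fabp5 by 1.14 (0.000343) and the chemokine gene Ccl22 by 0.84 (0.00175). Cish thus fell beside Ear2 in the same cells.

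In the Retnla Fn1 cluster the same list had 6 of 29 genes lower and 2 higher, against 4.02% of 9828 genes lower and 3.79% higher (7.8% in all), with a median of -0.20 against 0.0095 for all genes. Besides Cish (log2 -1.46, edgeR adjusted p = 0.000268), Socs2, another STAT5-induced inhibitor, fell by 2.50 (0.00013), the transcription factor genes Irf4 by 1.32 (1.73e-05) and Bhlhe40 by 0.93 (0.000359). Pparg, a lipid-sensing nuclear receptor that GM-CSF is known to induce in alveolar macrophages, rose by 0.56 (edgeR adjusted p = 0.0176), and Socs3 rose by 0.47 (0.0321). The list therefore did not move in a single direction in these cells, and Il1rn, 1 of the 6, is a defining gene of the cluster. The cluster was formed with these genes among the inputs, so its cells need not be the same kind in both genotypes.

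Of genes tied to IL-4 and alternative activation, of which Retnla is a well known member, 4 of 23 fell and 4 rose in cDC2-like cells, against 2.56% of all genes lower and 1.85% higher, and the list's median log2 difference was 0.0015. Those that fell were the lectin genes Mgl2 (log2 -0.82) and Cd209d (-0.41), Ccl22 (-0.84) and Irf4 (-0.43), and those that rose were Arg1 (1.74), the arginase gene, Cd300a (0.52), Cd163 (0.57) and the receptor chain gene Il2rg (0.41). In the Retnla Fn1 cluster 7 of 21 fell and 2 rose, against 4.02% of all genes lower and 3.79% higher, with a median of -0.20. Among those that fell were the lectin genes Cd209a (log2 -1.53) and Mgl2 (-1.04). Mmp12, a macrophage elastase gene, was another, but it helped to define the cluster, so nothing is read from it. Of 24 myeloid transcription factor genes, 7 fell and 2 rose there, with a median of 0.023, and Cebpe, a C/EBP factor of granulocyte maturation, fell to 3.85 and 2.45 CPM in knockout, against 28.2 and 28.4 CPM in heterozygous libraries (log2 -3.12, edgeR adjusted p = 1.97e-05). Irf8, a factor of monocyte and dendritic cell development, rose by 1.08 in the cluster and by 0.99 in cDC2-like cells (edgeR adjusted p = 0.00386 and 0.0138).

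Of the matrix partners and receptors of fibronectin, 4 of 17 rose in the Retnla Fn1 cluster and 1 fell, against 3.79% of all genes higher and 4.02% lower, with a median of 0.34, while Fn1 itself was lower there. The cluster's summed macrophage markers were higher in knockout libraries too, as given above, and their part in this count was not tested. Those that rose were the protease gene Mmp14 (log2 1.91), the integrin gene Itgb5 (1.38), the syndecan gene Sdc4 (1.01) and the transglutaminase gene Tgm2 (0.78), and the gene that fell was the defining gene Mmp12. In cDC2-like cells, against the same 1.85% and 2.56% of all genes, 1 of 17 rose (Mmp14, log2 1.71) and 2 fell (the hyaluronan receptor gene Cd44, log2 -0.43, and Itga5, an integrin chain of the fibronectin receptor, log2 -0.40). Of the antimicrobial genes measured beside the lysozymes, 3 of 6 rose in cDC2-like cells and 0 fell, against 1.85% of all genes higher and 2.56% lower, with a median of 1.19. Plac8 rose to 347 and 446 CPM in knockout, against 208 and 205 CPM in heterozygous libraries (log2 0.95, edgeR adjusted p = 0.000112). Plac8 is the first leading gene of the monocyte-like cluster, and the summed monocyte markers of cDC2-like cells were higher in both knockout libraries, as given above; the part of monocytes in the Plac8 difference was not tested. S100a8 and S100a9, genes of neutrophils and classical monocytes, rose at levels under 6 CPM in every library. Plac8 also rose in the Retnla Fn1 cluster (log2 1.85, edgeR adjusted p = 0.0358), the only one of 3 measured genes of that list to pass there.

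Stress genes induced by tissue dissociation summed to 18210 and 15838 CPM in the cluster in knockout and 17205 and 15937 CPM in heterozygous libraries. Of these 17 genes 3 (Fos, Jun and Ier2) rose there and 0 fell, against 3.79% of all genes higher and 4.02% lower. In cDC2-like cells edgeR called 0 of the 17, against 4.41% of all genes. They summed there to 21028 and 16846 CPM in knockout and 17177 and 16674 CPM in heterozygous libraries. In monocyte-like cells 2 of the 17 (Fos and Jun) rose and 0 fell, against 0.484% of all genes higher and 0.669% lower. In macrophage-like cells 0 of the 17 were called, against 0.0451% of all genes. Of salivary epithelium genes, 1 of 13 (Epcam) rose in cDC2-like cells and 0 fell, against 1.85% of all genes higher and 2.56% lower. The part of these genes in the results above was not tested.

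Relatives of the 5 genes were mostly silent. Retnlg, a resistin-like gene of neutrophils, was highest in the neutrophil-like cluster at 7517 CPM and at 2.03 CPM in the Retnla Fn1 cluster, although its transcript end is 79.5% identical to that of Retnla. Retn and Retnlb had 1 to 7 UMIs per library over all cells. Ear1, Ear6, Ear10 and Ear14 had 0 to 4 UMIs per library. Rnase6, another family member, was highest in a cluster with plasmacytoid dendritic cell markers at 659 CPM.

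By pattern over the 41 clusters (Pearson r of log2(CPM + 1), among 8057 genes), Retnla was most like the chemokine genes Ccl9 (r = 0.81) and Ccl6 (r = 0.80) and the IL-1 receptor antagonist gene Il1rn (r = 0.78). Fn1 was most like Il6 (r = 0.86), Ear2 (r = 0.82) and Tppp3 (r = 0.79). Lyz1 was most like Lyz2 (r = 0.79), Cd300lg (r = 0.75) and Slamf8 (r = 0.74), and Lyz2 was most like the lectin genes Clec4a2 (r = 0.96), Clec4a1 (r = 0.95) and Clec4a3 (r = 0.94). Ear2 was most like Gm21188 (r = 0.85), Ifitm6 (r = 0.84) and Emilin2 (r = 0.84). Among the 5 genes r ran from 0.48 (Retnla with Fn1) to 0.82 (Fn1 with Ear2). These clusters share libraries and depth, so the values are descriptions without a test.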

How the data were processed

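Single-cell 3' libraries were read from the deposited matrices, which hold raw UMI counts, whole numbers without normalization, as the submitters' processing notes (Cell Ranger 7.0.0, GRCm39) and the values show. Per the labels the kit was the 10x Chromium 3' kit v2. The 5 genes and all lists were chosen with earlier results of these data known.

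Of 39395 barcodes, 37644 passed minimums of 500 UMIs and 300 genes and a mitochondrial limit of 10%. Doublets were scored with Scrublet at a rate of 0.008 per 1000 barcodes, and the expected share, 2839 cells, was removed, since the automatic threshold marked under 0.5%. The rest were clustered with scanpy 1.11.5 and leidenalg 0.10.2 (3000 variable genes, 40 components, 15 neighbours, resolution 1.5) and named from markers. These names were rebuilt here and may differ from the study's, and 11 of 41 clusters stayed unnamed.

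Levels are CPM of summed UMIs. Named genes were the 5 genes, the 3 genes most like each in pattern, up to 4 list genes per class and direction that passed, relatives, and Csf2. Sums per library were tested with edgeR 4.0.16 (quasi-likelihood, TMM, low-count filter, classes of at least 50 cells per library, threshold 0.05), with knockout over heterozygous as the direction. Neutrophil-like cells were too few to test. Nothing says that the pools are separate litters or days. The p-values of the main fit therefore rest on the spread between 2 pooled libraries per genotype, with 2 residual degrees of freedom. The 2 libraries of a genotype also differ in sex. The quasi-likelihood fit moderates each gene's spread with that of the other genes, so small p-values do not rest on these 2 degrees of freedom alone. The fit with sex as a block leaves fewer residual degrees of freedom. Binomial intervals are exact and, like all counting limits, cover counting error only. The alternatives were DESeq2 1.42.0, no low-count filter, sex as a block, doublets kept, a mitochondrial limit of 5%, thinning, other backgrounds and leaving out each library. On counts simulated with 200 genes changed 4-fold, 99.0% were recovered in cDC2-like, 97.4% in macrophage-like, 95.4% in monocyte-like and 90.8% in eosinophil-like cells and 93.8% in the Retnla Fn1 cluster. False calls numbered 5, 7, 6, 10 and 9 in the same order. The simulated spread was the fitted trend, so the recovery does not describe genes that vary more than the trend.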

Additional observations from a re-analysis of the deposited data

Results flagged for a closer look

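In 4 cases the difference between Csf2-/- and Csf2+/- libraries ran in opposite directions in females and males, with 1 library per sex and genotype, so the difference between the sexes was not tested. Fn1 in macrophage-like cells was higher in the Csf2-/- female library (log2 0.56) and lower in the Csf2-/- male library (log2 -0.98), male minus female -1.545. Lyz1 in macrophage-like cells had log2 differences of 0.62 in females and -0.44 in males, male minus female -1.059. A single cell held 90 of the 104 UMIs of the Csf2-/- female library, and another 111 of the 152 of the Csf2-/- male library. Lyz1 in monocyte-like cells had log2 differences of -0.34 in females and 0.79 in males, male minus female 1.134. Single cells there held 107 of 250 and 125 of 401 UMIs in Csf2-/-, and 118 of 351 and 65 of 221 in Csf2+/- libraries. A few cells can thus set the direction for Lyz1. Lyz2 in eosinophil-like cells had log2 differences of -0.44 in females and 0.48 in males, male minus female 0.9238. It rests on 20 and 49 UMIs in Csf2-/- and 66 and 77 UMIs in Csf2+/- libraries.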

How the results depend on the processing

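Ear2 in cDC2-like cells passed under all 14 settings. The number of genes called by edgeR was 5 in macrophage-like cells, but 31 with DESeq2, 390 with no low-count filter, 18 with doublets kept and 0 to 545 with a library left out. It was 112 in monocyte-like cells (DESeq2 32, no filter 237, a library left out 19 to 408) and 478 in cDC2-like cells (262, 870 and 202 to 626 in the same order). It was 3 in eosinophil-like cells (no filter 16, doublets kept 5, a library left out 4 to 18) and 767 in the Retnla Fn1 cluster (DESeq2 359, a library left out 497 to 1046). The cause of these changes was not tested, and a lone library is assumed to vary like the other genotype.

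The replicate number stands for the labelled sex, with 1 female and 1 male library per genotype, and not for a shared litter or day. A fit with sex as a replicate block leaves 1 residual degree of freedom. The calls in it were 843 in macrophage-like, 173 in monocyte-like and 15 in eosinophil-like cells. Retnla and Lyz2 in macrophage-like (adjusted p = 2.49e-14 and 0.00113), Lyz2 in monocyte-like (0.000941), Fn1 and Lyz2 in cDC2-like (6.87e-05 and 0.0385) and Retnla in eosinophil-like cells (0.0397) then passed in edgeR.

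The share of expressers over whole libraries moved by less than the spread in 59 of 60 alternatives, and no direction reversed in a called value. The exception was Fn1, at a log2 difference of -1.27 after thinning to 3000 UMIs, against -0.89. Levels in lymphocytes moved for Fn1 with NK and ILC1-like cells alone (-1.61, against -0.58) and for Ear2 with doublets kept (-1.21, against -2.51). Lyz1 in lymphocytes was at -1.93 and ran from -4.81, without the Csf2-/- male library, to -1.03. Of 171 results for the 5 genes within classes, 142 kept their side of the threshold and 29 passed it newly. Depth limits Ear2 and Lyz1 most, with 2 to 84 UMIs in all lymphocytes of a library.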
